A study of Mus musculus with 6 samples.

Results

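Natural killer (NK) cell receptors and markers of innate lymphoid cells were followed through 6 single-colour arrays of thymocytes at the double-negative stage, at which T cell precursors display neither CD4 nor CD8. The 9 genes are Klrd1, Klrc1, Klrk1, Klra3, Klra7, Ncr1, Il2rb, Il18r1 and Zbtb16, and every probe set that the platform's probe table gives to exactly 1 of them was taken, which was 12 of the 12488 probe sets. By their descriptions, 3 arrays came from RAG1/Ezh2 double mutant mice and 3 from RAG1-deficient mice. Both groups are thus described as lacking RAG1, which antigen receptor rearrangement requires. By the labels the groups differ in Ezh2, the methyltransferase of Polycomb repressive complex 2. The labels give no strain, age, sex, Cre driver, allele or sorting gate for either group, nor do they say whether the arrays of a group came from separate animals, so a p-value measures the spread of these samples alone, and that may be technical. Sample titles come in 3 styles, called numbered (replicate 1), Rag (replicate 2) and Thy (replicate 3) after their wording, with 1 array of each group in a style. The titles of RAG1-deficient replicates 1 and 3 contain WT, although their descriptions name RAG1-deficient or RAG1 mutant mice. Fits with and without the title style as a block are called paired and unpaired.

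NK cells carry receptors that inhibit or activate them, and most of the inhibitory ones read class I molecules on other cells. In the mouse many of these receptors are C-type lectins encoded side by side in the NK gene complex: the Klra genes (Ly49 receptors), the Klrc genes (NKG2 receptors), their partner chain Klrd1 (CD94), and Klrk1 (NKG2D). Some of these genes are also expressed in activated T cells and in innate-like T cells. Early thymic progenitors can still give rise to NK cells and innate lymphoid cells before they commit to the T lineage, and a thymus that cannot rearrange its receptor genes keeps its T lineage cells at the double-negative stage. In the RefSeq annotation (GRCm38.p6) Klrd1, Klrk1, Klrc1, Klra7 and Klra3 lie in this order on chromosome 6, Ncr1 lies on chromosome 7, Il2rb on 15, Il18r1 on 1 and Zbtb16 on 9.

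Because H3K27me3, the mark that Ezh2 places, is known mainly from promoters rich in CG dinucleotides, the CG content of the members' promoters is shown. RefSeq promoter windows of 300 bases (250 before and 50 after the start) were at hand for 6 of the 9 genes. Each window is given 5′ to 3′ on the gene's strand with every CG in capitals. Ncr1 is printed because its windows hold 0 CG, Klrc1 because it belongs to the lectin group and holds 1, and Il18r1 because 1 of its windows holds 8, the most among these genes.
Ncr1, chr7:4337465-4337764, plus strand: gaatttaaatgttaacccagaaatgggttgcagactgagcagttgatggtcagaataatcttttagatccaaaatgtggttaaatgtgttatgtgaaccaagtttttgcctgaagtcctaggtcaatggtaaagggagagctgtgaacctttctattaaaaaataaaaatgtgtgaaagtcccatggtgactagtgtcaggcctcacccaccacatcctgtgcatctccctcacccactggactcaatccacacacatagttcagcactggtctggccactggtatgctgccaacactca
Klrc1, chr6:129678924-129679223, minus strand: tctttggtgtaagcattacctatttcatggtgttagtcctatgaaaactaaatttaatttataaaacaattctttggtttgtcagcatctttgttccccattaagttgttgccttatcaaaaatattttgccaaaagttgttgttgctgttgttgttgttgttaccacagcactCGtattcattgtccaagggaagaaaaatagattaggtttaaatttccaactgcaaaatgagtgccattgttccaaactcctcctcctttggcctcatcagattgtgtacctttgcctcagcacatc
Il18r1, chr1:40465756-40466055, plus strand: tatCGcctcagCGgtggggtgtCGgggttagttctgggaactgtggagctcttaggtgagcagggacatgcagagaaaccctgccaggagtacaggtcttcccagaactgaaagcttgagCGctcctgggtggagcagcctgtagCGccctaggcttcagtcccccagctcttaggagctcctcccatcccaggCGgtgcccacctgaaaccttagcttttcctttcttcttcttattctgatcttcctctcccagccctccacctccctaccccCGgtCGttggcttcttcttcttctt
A median promoter of the 32851 windows in that table held 7 CG. The Klrk1 window held 4, that of Klra3 held 3, and those of Klra7 held 3 and 0. Windows with 4 or fewer made up 38% of all, so the promoters printed or counted here for the lectin receptors lie on the CG-poor side of the genome's promoters. The searched motif was CG alone, which reads the same on both strands, and a count of it says nothing of what was bound there in these cells.

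The check of the labels came out as follows. Ezh2 had scaled intensities of 291.5, 650.6 and 723.6 on the double mutant arrays against 1435, 1641 and 1790 on the RAG1-deficient arrays, without overlap. Its log2 difference was -1.60 ± 0.34 (SE, n = 3 each), with a limma adjusted p of 0.332 unpaired and 0.0261 paired. Rag1 transcript was bright in both groups, at 5171 to 5394 in the double mutant and 6933 to 7264 on the RAG1-deficient arrays on its brighter probe set, so this array does not check the loss of RAG1. Ptcra, a defining gene of double-negative thymocytes that encodes a chain of the pre-T cell receptor, was bright on every array, between 4614 and 5964 in the double mutant and between 6588 and 10480 on the RAG1-deficient arrays. The 9 tested markers of double-negative thymocytes, Ptcra and Rag1 among them, all lay below 0 in the double mutant. Their median log2 difference was -0.23, and none passed in either limma fit. Among all 5751 tested named genes 2860 lay below 0. RAG1-deficient replicate 1 had by far the most CD8 transcript and the most Cd4 (699.2), although its label names double-negative thymocytes. The source of this signal was not tested. Cd8a had 81.3, 61.3 and 15.6 on the double mutant arrays against 2973, 79.6 and 14.7 on the RAG1-deficient arrays, and Cd8b1 had 75.3, 12.3 and 11.2 on the double mutant arrays against 8426, 164.4 and 45.3 on the RAG1-deficient arrays. RAG1-deficient replicate 2 had the highest summed intensity of the 11 myeloid markers. The sums were 5462, 3054 and 5797 on the double mutant arrays against 3142, 14724 and 3094 on the RAG1-deficient arrays. On RAG1-deficient replicate 2 the largest parts were S100a8 (4809), S100a9 (3706), Lyz2 (2719) and Ngp (2237). Not every marker was highest there: Csf1r was highest on RAG1-deficient replicate 1 (487.9) and Cd14 on double mutant replicate 3 (425.4).

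The member probe sets gave moderate to low signal, which without detection calls does not show that each transcript was present. No member differed between the groups by more than the spread between arrays. Of the 12 probe sets, 11 passed the filter on dim signals (an intensity above 86.5 on at least 3 of the 6 arrays), and their mean intensities lay between the 47.8th and the 73.4th percentile of all probe sets. None of the 11 passed in the unpaired limma fit, where 0.0393% of the 7642 tested probe sets were called in either direction, and none in the paired fit, where 0.667% were called. At an unadjusted p under 0.05 the unpaired fit called 0 members against 3.19% of all tested probe sets, and the paired fit called 1, Zbtb16, against 13.1%. Of the 11, 4 lay above and 7 below 0, with a median log2 difference of -0.02 (all tested probe sets -0.0021). The groups overlapped on each of the 11, while 7.13% of all tested probe sets showed no overlap. In these bulk samples, fewer cells of a type and less RNA per cell cannot be told apart.

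**Figure D1:**
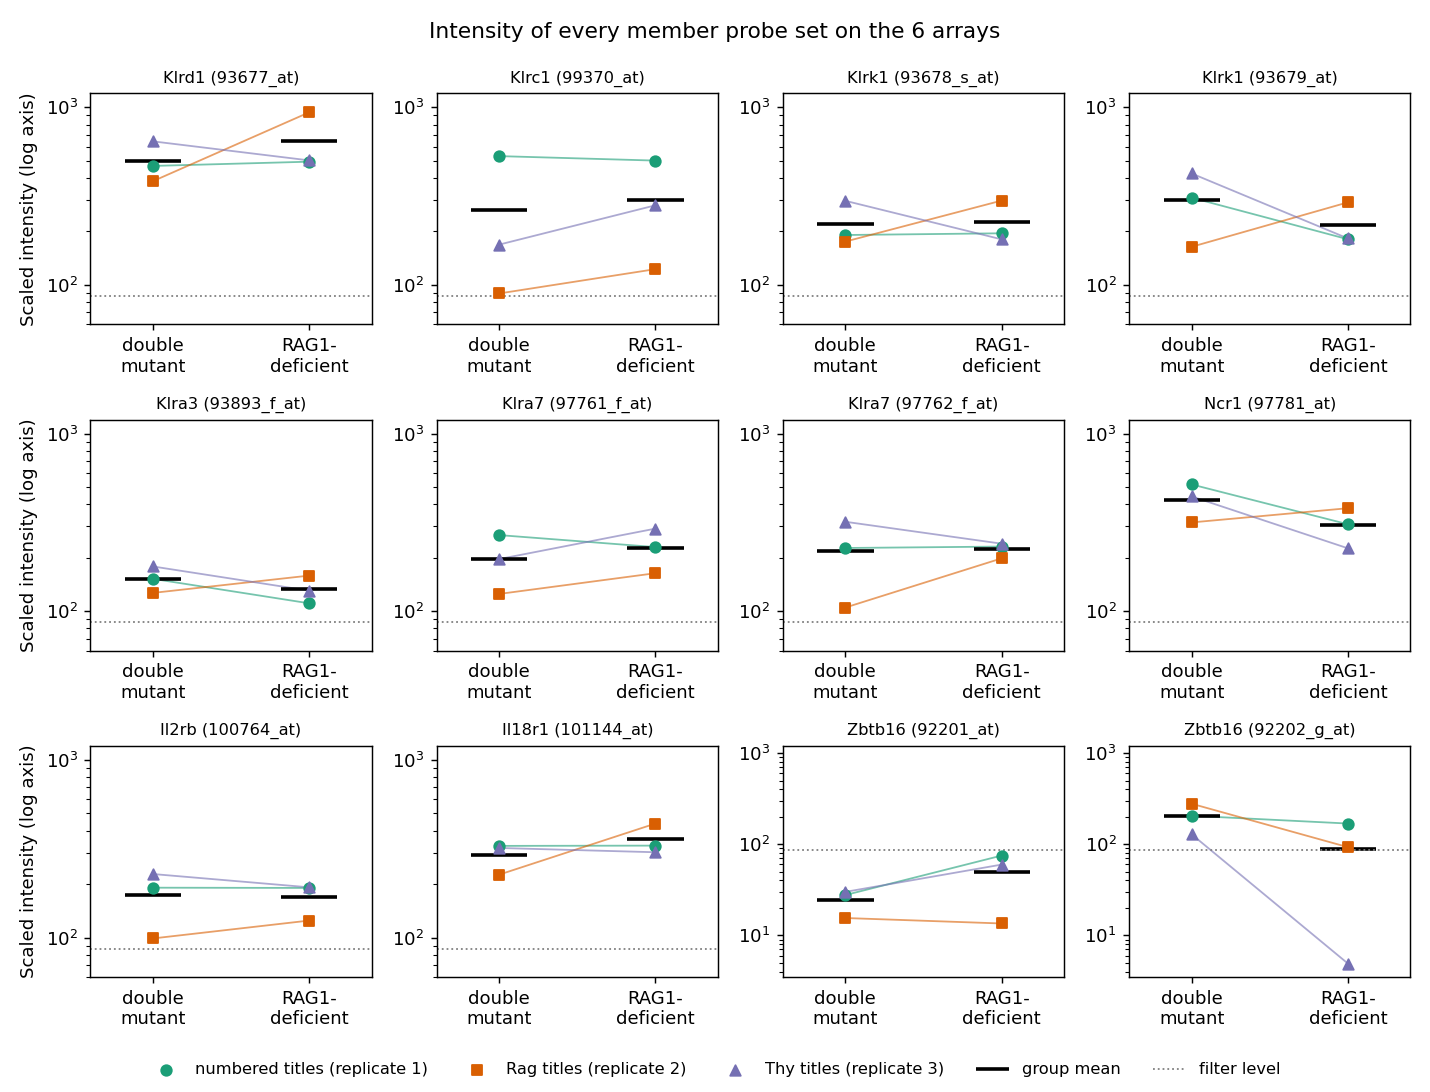
Scaled intensity (log axis) of each of the 12 probe sets in the double mutant (left) and the RAG1-deficient arrays (right) of each panel. Points are arrays, joined within a title style, bars are group means, and the dotted line is the filter level of 86.5. Axes run from 60 upwards except for the 2 Zbtb16 panels, and the groups overlap in every panel.

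Klrd1, the chain that pairs with NKG2 receptors to read the non-classical class I molecule Qa-1, had intensities of 467.7, 383.6 and 643.3 on the double mutant arrays against 494.2, 937 and 502.5 on the RAG1-deficient arrays. RAG1-deficient replicate 2 stood above every other array, and the remaining 5 were mixed. The log2 difference was -0.32 ± 0.31 (SE, n = 3 each; 95% interval -1.04 to 0.39). It was -0.08 in the numbered pair, -1.24 in the Rag pair and 0.34 in the Thy pair, so the mean below 0 rests on the Rag pair. That RAG1-deficient array is also the one with the highest summed myeloid marker signal, and the part of this in the result was not tested.

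Klrc1, which encodes the inhibitory partner NKG2A, had 531.2, 89.5 and 168.6 on the double mutant arrays against 501.2, 122.7 and 280.7 on the RAG1-deficient arrays. Both numbered arrays were high and both Rag arrays low, so the arrays sorted by title style and not by genotype. Klrc1 was the only member with a title-style difference in the paired limma fit (adjusted p = 0.00558, a test added after the values were seen), in a table where 30.2% of all tested probe sets had one. Between the groups the log2 difference was -0.32 ± 0.63 (SE, n = 3 each), with a wide 95% interval of -1.77 to 1.13, and with the title style as a block its adjusted p was 0.575. Although the proteins of Klrd1 and Klrc1 form 1 receptor, their transcripts did not follow each other over the 6 arrays (Pearson r = -0.26, a description over arrays that share title styles).

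Klrk1, the activating receptor NKG2D for stress-induced ligands, was read by 2 probe sets. The first (93679_at) had 309.8, 163.9 and 424.1 on the double mutant arrays against 180.7, 291.8 and 182.6 on the RAG1-deficient arrays. The double mutant was higher in the numbered pair (log2 difference 0.71) and in the Thy pair (1.12), and lower in the Rag pair (-0.75). Over all arrays the log2 difference was 0.36 ± 0.37 (SE, n = 3 each; 95% interval -0.48 to 1.20). The second (93678_s_at, of a type that can detect related transcripts) had 191, 175.4 and 297.5 against 195.3, 298.5 and 180.5, with a log2 difference of -0.02 ± 0.31 (SE). Both showed the same order of pairs, with the Rag pair lowest and the Thy pair highest, and they correlated at r = 0.78 over the 6 arrays. Without the Rag pair the paired fit gave the first probe set a log2 difference of 0.91 and a limma adjusted p of 0.0657, which did not pass in a fit that called 191 probe sets. The Rag pair was the sole pair in which this probe set was lower. Leaving out the numbered pair gave 0.18, and leaving out the Thy pair -0.02. The second probe set had 0.31 without the Rag pair (paired limma adjusted p = 0.855).

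The Ly49 genes Klra3 and Klra7 encode inhibitory receptors for classical class I molecules (Ly49C and Ly49G). All their probe sets end in _f_at and can detect several members of this family of near-identical genes, so a value cannot be given to 1 gene with certainty. Klra3 had 152.2, 126.8 and 178.7 on the double mutant arrays against 110.8, 158.7 and 130.5 on the RAG1-deficient arrays, a narrow range in both groups, with a log2 difference of 0.17 ± 0.31 (SE, n = 3 each). A further 2 probe sets that the table gives to Klra3 and Klra9 together were not counted as members, and showed 0.36 and -0.17. Klra7 had 268.3, 125.1 and 196.6 on the double mutant arrays against 229.7, 163.7 and 291.8 on the RAG1-deficient arrays on probe set 97761_f_at. On its other probe set (97762_f_at) it had 227, 104.9 and 318.9 against 231.2, 198.5 and 240. The double mutant Rag array was the lowest of the 6 on both, and the log2 differences were -0.22 ± 0.34 and -0.15 ± 0.38 (SE). The 95% intervals of the 3 Ly49 probe sets ran from -1.01 at the lowest to 0.87 at the highest.

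Ncr1 encodes NKp46, an activating receptor found on NK cells and some innate lymphoid cells. It had 517.4, 316.2 and 442.9 on the double mutant arrays against 308.7, 380.2 and 226 on the RAG1-deficient arrays. The numbered and Thy arrays of the double mutant were the highest of the 6, and the Rag array of the double mutant lay among the RAG1-deficient ones. The log2 difference was 0.45 ± 0.28 (SE, n = 3 each; 95% interval -0.19 to 1.10), higher in 2 of 3 pairs, and it did not pass (limma adjusted p = 0.475 paired). An exact permutation test of the group means gave p = 0.2, where 3 arrays against 3 cannot go below 0.1. Without the Rag pair, the sole pair in which Ncr1 was lower, the log2 difference was 0.80. Its paired limma adjusted p was 0.0827, in a fit that called 191 probe sets. Leaving out the numbered pair gave 0.33 (paired limma adjusted p = 0.716), and leaving out the Thy pair 0.23 (0.782).

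**Figure D2:**
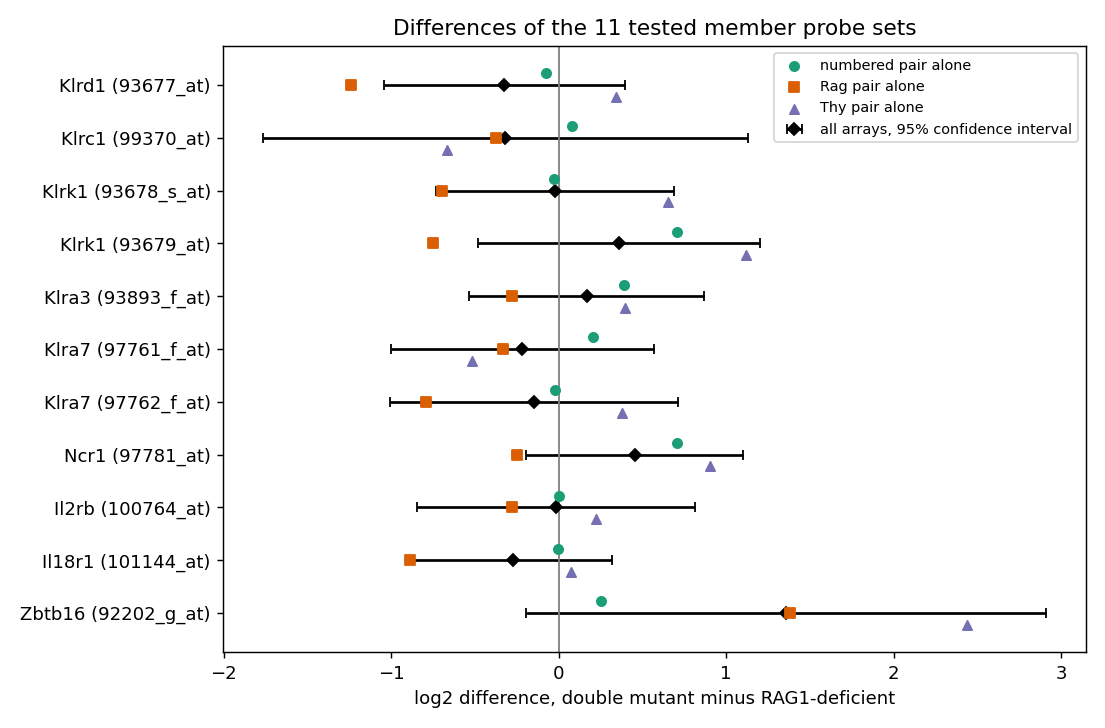
log2 difference (double mutant minus RAG1-deficient) of the 11 tested probe sets. Diamonds with bars are the unpaired limma fit with its 95% confidence interval, and coloured points are the 3 title-style pairs alone. Each interval includes 0, and the Rag pair (squares) lies left of 0 for every probe set but that of Zbtb16.

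Neither cytokine receptor chain passed, and on both the groups overlapped. Il2rb, the chain shared by the receptors of interleukin 2 and interleukin 15, the cytokine on which NK cells depend, had 190.8, 98.8 and 227.8 on the double mutant arrays against 190.2, 124.6 and 191.7 on the RAG1-deficient arrays. Both Rag arrays were the lowest, and the log2 difference was -0.02 ± 0.36 (SE, n = 3 each; 95% interval -0.84 to 0.81). Il18r1, the ligand-binding chain of the interleukin 18 receptor, had 328, 225.9 and 319.3 against 329.2, 438.2 and 302.1. The numbered and Thy arrays of both groups lay within a narrow band, and the Rag arrays formed the lowest value in the double mutant and the highest in the RAG1-deficient group. Its log2 difference was -0.27 ± 0.26 (SE; 95% interval -0.87 to 0.32), and it was 0.03 without the Rag pair.

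Zbtb16 encodes PLZF, the zinc finger factor of natural killer T cells and innate lymphoid precursors. Probe set 92202_g_at had 205.3, 278 and 128.4 on the double mutant arrays against 168.6, 92.8 and 4.9 on the RAG1-deficient arrays. The double mutant was higher in all 3 pairs, as were 18.8% of all tested probe sets, with log2 differences of 0.25 in the numbered pair, 1.38 in the Rag pair and 2.44 in the Thy pair, while the groups overlapped because RAG1-deficient replicate 1 stood above double mutant replicate 3. The log2 difference was 1.36 ± 0.68 (SE, n = 3 each; 95% interval -0.20 to 2.91), with a limma p of 0.0793 before adjustment in the unpaired fit and an adjusted p of 0.227 in the paired fit, and an exact permutation p of 0.2. The size depends on RAG1-deficient replicate 3, where the value was 4.9: without this array the log2 difference was 0.55. The other probe set (92201_at) lay under the filter on all 6 arrays, at 27.7, 15.5 and 30 against 75.1, 13.5 and 59.8, and was not tested. No direction is read from it at these levels, so the values of Zbtb16 rest on 1 probe set.

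Across the members the 3 title-style pairs did not move alike. The double mutant Rag array was the lowest of the 6 for 8 of the 11 probe sets (72.7%), while it was the lowest for 20.7% of all tested probe sets, and the median member deviation on it was -0.49 on the log2 scale against -0.08 over all tested probe sets. In the Rag pair 10 of 11 lay lower in the double mutant (median log2 difference -0.37), and 51.2% of all tested probe sets lay higher there. In the Thy pair 9 of 11 lay higher (median 0.38), and in the numbered pair 7 of 11 (median 0.08). All 3 pairs went the same way for Zbtb16 alone. A difference between the pairs cannot be tested with 1 array of each group in a pair, and the probe sets share their arrays and in part their targets. Without the Rag pair 9 of the 11 lay above 0 in the paired fit, with a median of 0.18 (all tested -0.0003), and none passed. That pair was singled out from these same values, so the shift upwards without it shows no rise of the members. Without the numbered pair 4 of the 11 lay above 0 (median -0.03), and without the Thy pair 3 (median -0.14). The Rag arrays also had the highest ratio of 3' to 5' signal of Actb, 2.77 on the double mutant and 2.26 on the RAG1-deficient array, whose part in these values was not tested. The titles of the Rag arrays name T cells and, unlike the others, contain neither DN nor Thy.

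**Figure D3:**
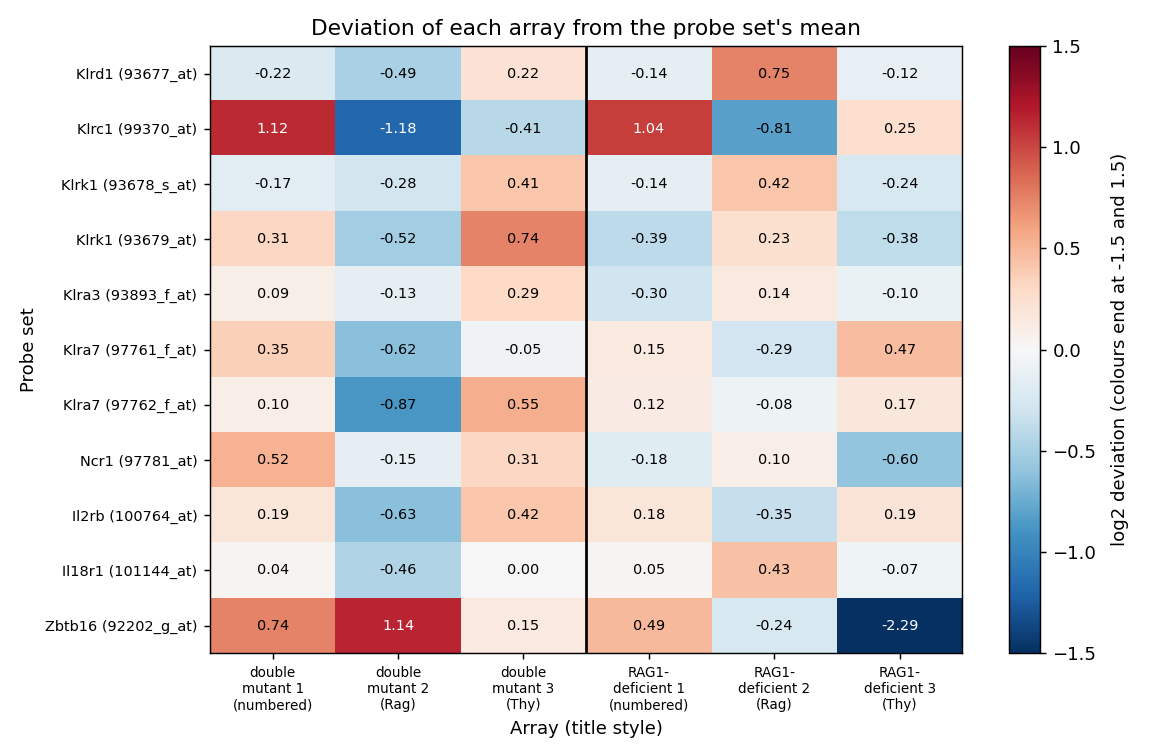
log2 deviation of each array (columns, double mutant left, RAG1-deficient right) from the mean of the 6 arrays, for the 11 tested probe sets (rows). The column of double mutant replicate 2 is below 0 for every probe set but that of Zbtb16, and Klrc1 splits by title style.

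The members fell into loosely similar profiles over the 6 arrays, given here as descriptions. Klrd1 went with Klrk1 probe set 93678_s_at (r = 0.89) and with Il18r1 (0.88), and Klra3 with Klrk1 probe set 93679_at (0.93). Klra7 probe set 97762_f_at went with Il2rb (0.93). Zbtb16 stood apart, with r between -0.55 and 0.63 to the others. Among 6866 other named probe sets, those most like Klrc1 were Klf6 (r = 0.994), Pnrc2 (0.991) and Cab39 (0.990), and 74 exceeded 0.95. The nearest to Il2rb were Sprr2e (r = 0.999), Mylk (0.996) and Elane (0.996), with 168 above 0.95, and to Zbtb16 Dctpp1 (0.990), Ddr1 (0.989) and Dsp (0.987). Klrd1 was nearest to Epb41l4a (0.966), Klrk1 to Rnf19a (0.973), Klra3 to Mast2 (0.966), Klra7 to Creb1 (0.988), Ncr1 to Phka2 (0.952) and Il18r1 to a probe set of Vpreb1 (0.964). The arrays share their title styles and their scaling.

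The other lectin receptors of NK cells that were tested lay above 0 in their mean log2 difference, and none passed. By title-style pair the direction was mixed. Klra5 and Klrb1a were higher in the double mutant in 3 pairs, Klrb1b and Klrg1 in 2, and Klra6 in 1. Of 26 listed, 6 had a probe set that the probe table gives to them alone, 5 were tested and all 5 lay above 0, with a median log2 difference of 0.66. Those of Klra5 and Klra6 end in _f_at and can detect other Ly49 genes, so they may not be separate readings. Among all 5751 tested named genes 2891 lay above 0, and the median was 0.0018. Klrb1a, an activating receptor of the NKR-P1 family, had 293.4, 167.5 and 275.1 on the double mutant arrays against 130.3, 126.5 and 166 on the RAG1-deficient arrays. The groups did not overlap, by a margin of 1.5 between double mutant replicate 2 and RAG1-deficient replicate 3, and the log2 difference was 0.68 ± 0.31 (SE, paired limma adjusted p = 0.257). No overlap was seen for 7.13% of all tested probe sets. Klrb1b, an inhibitory relative, showed 0.66 ± 0.32 (SE), and Klrg1, an inhibitory receptor that reads cadherins, 0.69 ± 0.42 (SE). Klrg1 had 122.6, 160.1 and 183 on the double mutant arrays against 160.6, 69.8 and 53.9 on the RAG1-deficient arrays. It exceeded the filter level on 3 double mutant arrays and 1 RAG1-deficient array. Its place among the 5 thus depends on the group where it is high.

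The signalling chains behind the receptors gave no call. Of 17 tested adaptors and partners, 13 lay below 0 with a median log2 difference of -0.15, and none passed in either limma fit. Among all 5751 tested named genes 2860 lay below 0. Tyrobp, the DAP12 adaptor of activating NK receptors, which myeloid cells also express, had 2718, 1347 and 1206 on the double mutant arrays against 2942, 3972 and 1403 on the RAG1-deficient arrays. Its log2 difference was -0.62 ± 0.43 (SE). The 10 tested markers of antigen-presenting and dendritic cells all lay below 0 and none passed in either limma fit, with a summed intensity of 22110, 11363 and 6485 on the double mutant arrays against 31773, 24243 and 6915 on the RAG1-deficient arrays. The part of these markers, and of the myeloid markers given above, in the Tyrobp values was not tested. The phosphatase Ptpn6 (SHP-1), which inhibitory receptors recruit, had 879.4, 826.3 and 939.8 on the double mutant arrays against 971.8, 1121 and 1191 on the RAG1-deficient arrays. The groups did not overlap, as for 7.13% of all tested probe sets, and the log2 difference was -0.30 ± 0.20 (SE). The kinase Zap70 showed -0.71 ± 0.42 (SE) and the adaptor Sh2d1a -0.63 ± 0.40 (SE). Both were highest on RAG1-deficient replicate 1, the array with the most CD8 transcript, whose part in these differences was not tested. In the Rag and Thy pairs Zap70 showed -0.65 and -0.26, and Sh2d1a 0.13 and -0.32. Tyrobp was chosen after its values were seen.

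The ligand side was read by few probe sets. Of 17 listed ligands 4 were tested and 3 lay above 0, and none passed in either limma fit. The classical class I genes H2-K1 and H2-D1, read by probe sets that can detect relatives, showed log2 differences of 0.56 ± 0.30 (SE) and 0.60 ± 0.31 (SE). H2-D1 did not overlap between the groups, at 14716, 15720 and 15018 on the double mutant arrays against 12080, 13258 and 6161 on the RAG1-deficient arrays. No overlap was seen for 7.13% of all tested probe sets. The cytokine gene Il18 showed -0.63 ± 0.74 (SE). Among 16 tested partners of the cytokine receptors, 7 lay above and 9 below 0 (median -0.08), and none passed. Socs3, a feedback inhibitor of cytokine signalling, did not overlap, at 686, 666.4 and 709.6 against 1089, 1030 and 751.4, with a log2 difference of -0.45 ± 0.22 (SE). Stat5a, a transcription factor downstream of Il2rb, showed 0.42 ± 0.24 (SE), and the interleukin 7 receptor Il7r -0.39 ± 0.24 (SE).

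Transcription factors of NK and innate lymphoid cells gave no call either. Of 29 listed, 12 were tested, 7 lay above and 5 below 0, and the median log2 difference was 0.05. The smallest p-values belonged to Nfatc2 (-0.59 ± 0.43, SE), Rora (0.47 ± 0.40, SE) and Ahr (-0.29 ± 0.43, SE). Id2, which NK and innate lymphoid cells need, was bright in both groups, at 2135, 1432 and 2686 against 2077, 1707 and 1706. Eomes, a factor of mature NK cells, lay at 81.8, 39.8 and 70.7 against 122.8, 63 and 88.9 and was not tested. Id2 and Eomes were chosen after their values were seen. Among 14 tested further surface molecules and mediators, 7 lay above and 7 below 0. The ones with the smallest p-values were the chemokine Xcl1 (0.53 ± 0.35, SE), the death ligand Fasl (0.46 ± 0.35, SE) and the chemokine receptor Cx3cr1 (-0.61 ± 0.47, SE), and none passed.

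Of 5 tested cytotoxic effectors, 2 rose in the paired limma fit, Gzma and Gzmb, as did 40 of all 5751 tested named genes. Neither passed in the unpaired limma fit (adjusted p = 0.267 for Gzma and 0.542 for Gzmb). Gzma, a protease of cytotoxic granules, had 8096, 7946 and 4982 on the double mutant arrays against 2796, 2163 and 1244 on the RAG1-deficient arrays, and rose with the title style as a block (log2 difference 1.79, limma adjusted p = 0.00356). Gzmb, a related granule protease, had 414.2, 553.1 and 902.7 on the double mutant arrays against 190.8, 199.4 and 298.5 on the RAG1-deficient arrays, and also rose in that fit (log2 difference 1.31, limma adjusted p = 0.0261). Of the 11 NK-defining markers 7 were on the array, and 3 of these (Eomes, the pore-forming Prf1 and the integrin Itga2) each exceeded the filter level on only 2 of the 6 arrays and were not tested, though none was at 0. The summed intensity of these 7 was 9421, 8842 and 6660 on the double mutant arrays against 4025, 3769 and 2454 on the RAG1-deficient arrays. Without Gzma it was 1324, 895.8 and 1678 on the double mutant arrays against 1229, 1606 and 1210 on the RAG1-deficient arrays, with overlap. Whether Gzma differs from the receptors in its response was not tested.

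**Figure D4:**
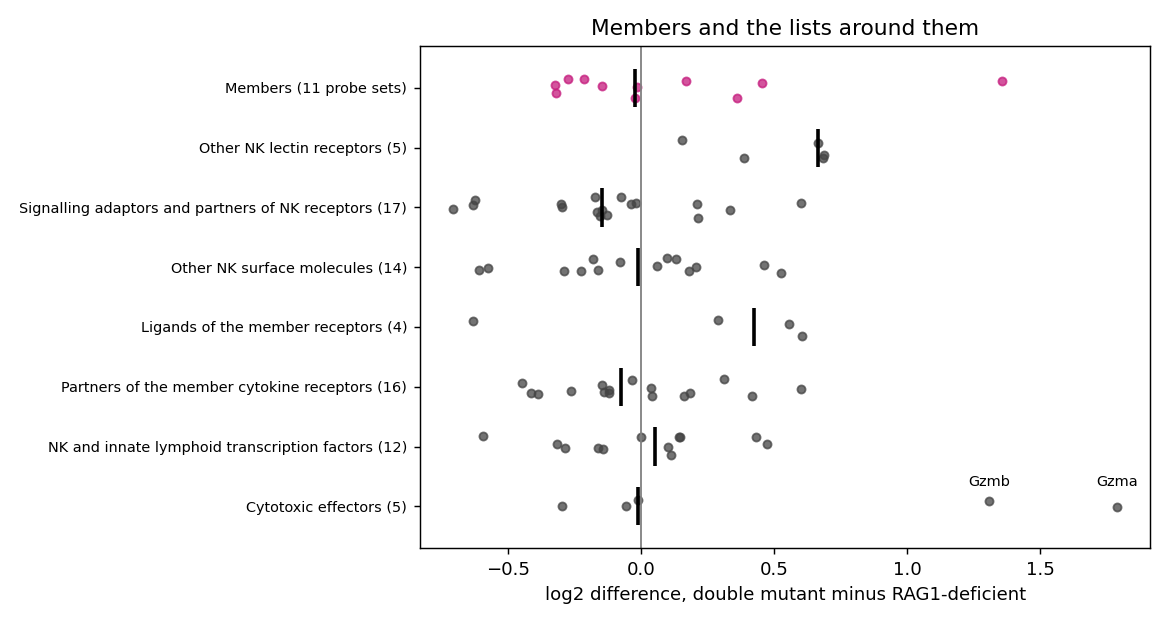
log2 difference (double mutant minus RAG1-deficient, unpaired fit) of the members (top row, 11 probe sets) and of the tested genes of 7 lists around them, with the number tested in brackets. Points are probe sets, jittered vertically, and bars are medians. The highest points are Gzma at 1.79, Zbtb16 at 1.36 (top row) and Gzmb at 1.31, and the 5 other lectin receptors all lie above 0. Of these, Klrg1 exceeded the filter level on only 1 RAG1-deficient array, and the Klra5 and Klra6 probe sets can detect other Ly49 genes.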

How the data were processed

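The deposited table holds 1 linear intensity per probe set and array. Which software made the deposited intensity values is not given in the sources used here. The lowest value was 0.1, and the 2%-trimmed mean of each array lay between 500.3 and 500.4, as it would after scaling to a common mean, which hides a change shared by most transcripts. Between 55.1% and 64.2% of probe sets per array exceeded the filter level. No detection calls were used. Precision is limited by the number of arrays. Genes were named through the platform's probe table and RefSeq (GRCm38.p6), which changed 0 symbols: of 12422 probe sets without the 66 controls, 10833 had 1 gene, 396 several and 1193 none.

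Values were analysed as log2(intensity + 23), 23 being the 20th percentile of all values, a scale on which changes of dim probe sets are understated. The 7642 probe sets above 86.5 (the 40th percentile) on at least 3 of 6 arrays entered the fits. These used limma 3.58.1 under R 4.3.3 (lmFit and eBayes, trend on mean level), two-sided, at a Benjamini-Hochberg threshold of 0.05 over every probe set in the fit, and the code was tested on simulated data. Title styles pair the arrays: deviations from group means correlated at 0.570 within the numbered style, 0.736 within Rag and 0.602 within Thy, above the limit of 0.1. No label states a shared day or litter. Lists were read through each gene's brightest probe set in the fit. All probe sets of the members are named. From each list the called genes are named, or else the 3 with the smallest p. Likeness is Pearson's r to a member's brightest probe set. Members and lists were chosen with earlier results of these data known. RNA quality was read as the ratio of 3' to 5' control probe sets. For Gapdh it was 0.928, 1.14 and 0.836 on the double mutant arrays against 1.04, 1.35 and 0.889 on the RAG1-deficient arrays (exact permutation p = 0.6), and for Actb it was 1.99, 2.77 and 1.24 on the double mutant arrays against 1.91, 2.26 and 1.40 on the RAG1-deficient arrays (exact permutation p = 0.9). Alternatives were another pseudocount, filter, scaling and variance model, the title style as a block, and each array or pair left out. Figures were drawn with matplotlib 3.10.9.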

Additional observations from a re-analysis of the deposited data

How the results depend on the processing

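No member passed under any of the 24 alternative settings, and the lowest adjusted p was 0.0657 (Klrk1 without the Rag pair). Of 252 recomputed member differences 232 kept their sign. Many of these could not change, because in this balanced design the filter, the variance model and the block leave a difference as it is. Of the 20 that turned, 16 came with an array or pair left out. With quantile normalization, unpaired or with the replicate block, Klrk1 probe set 93678_s_at moved to 0.0265 and Il2rb to 0.0002. With 1 array left out of the unpaired fit, the log2 differences ranged from -0.52 to -0.03 for Klrd1, -0.96 to 0.19 for Klrc1, -0.24 to 0.18 and 0.08 to 0.71 for Klrk1 (93678_s_at, 93679_at), 0.06 to 0.28 for Klra3, -0.45 to 0.0412 and -0.46 to 0.25 for Klra7 (97761_f_at, 97762_f_at), 0.27 to 0.64 for Ncr1, -0.23 to 0.29 for Il2rb, -0.38 to -0.11 for Il18r1 and 0.55 to 1.94 for Zbtb16. With a pair left out of the fit with the replicate block, signs turned without the Rag pair for Klrd1 (0.13), Klrk1 (93678_s_at, 0.31), Klra7 (97762_f_at, 0.18), Il2rb (0.11) and Il18r1 (0.0347), and without the Thy pair for Klrk1 (93679_at, -0.0220). The difference of Zbtb16 was 2.10 with a pseudocount of 1 and 0.82 with one of 86. The cause of these changes was not tested.

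Over all probe sets, 3 were called higher and 0 lower in the unpaired fit, 6 higher with the filter at the 60th percentile, 5 with quantile normalization, and 0 to 6 with an array left out. It was 0 without a Thy array, 1 with double mutant replicate 2 omitted and 6 with RAG1-deficient replicate 1 omitted. With the title style as a replicate block 43 were higher and 8 lower. There the higher calls became 24 with a pseudocount of 1, 5 without a filter, 17 with quantile normalization and 8 without the trend. The lower calls became 0 without a filter, 0 with quantile normalization, 3 with median scaling and 1 without the trend. Omitting the numbered pair left 12 higher and 2 lower, omitting the Rag pair 127 and 64, and omitting the Thy pair 3 and 0. The block changed no call of a member.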
